A study of Mus musculus with 96 samples.

Results

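The genes described here belong to the integrated stress response and to the targets of its transcription factor ATF4. They were taken by name as 10 mouse genes, Atf4, Atf5, Asns, Trib3, Chac1, Ddit3, Sesn2, Psat1, Phgdh and Ppp1r15a, and 11 of the 56748 genes of the deposited count table carry such a name. The name Ddit3 occurs 2 times in the table. Its shorter entry, with a length of 105 bases inside the span of the other, had no count in any library, and the longer entry was used.

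In the integrated stress response, kinases that sense a shortage of amino acids, misfolded protein in the endoplasmic reticulum, a lack of haem or viral RNA phosphorylate the translation factor eIF2. General protein synthesis then falls while a few mRNAs, Atf4 among them, are translated more, so the amount of ATF4 protein need not follow the amount of its mRNA. ATF4 switches on genes for amino acid synthesis and uptake, for redox defence and for feedback on the pathway, and in liver the pathway is known for its response to diets that lack an amino acid.

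RNA-seq libraries had been made from liver, skeletal muscle and cerebral cortex of mice fed ad libitum (AL) or kept on intermittent fasting (IF), and the comparison asks which mRNAs differ between the diets in each tissue. Male C57BL/6 mice were put on the diets at 6 weeks of age, with 16 h without food each day for the IF mice. They were killed after 4 months, over a morning window that opened before the fasting hours ended and closed after them. The paper states that the IF mice were sampled at the end of their fast. Whether food was returned before the later killings is not given. Every tissue has 8 AL males (mice 1 to 8), 8 IF males (mice 9 to 16), 8 AL females (mice 25 to 32) and 8 IF females (mice 33 to 40), all separate animals. For the females the labels give tissue, sex and diet, whereas strain, age, time on the diets and hours of fasting are not given in the sources used here. Because the IF males were, per the paper, killed at the end of a fast, the months on the diet and the last hours without food cannot be told apart. The fasting hours covered the whole dark phase, so a shift of feeding into the light phase cannot be told apart from fasting either. Sex cannot be told apart from the set of mice either, since mice 1 to 16 are all labelled male and mice 25 to 40 all labelled female.

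The 95 libraries used held between 26097314 and 49838004 counts on genes, with a median of 36132954. The tissue labels were checked against marker genes, given as the sum of the CPM (the counts of a gene scaled to a common library total) of 5 genes for each cell type. Hepatocyte markers, led by Alb, summed to between 42422 and 97557 CPM in the livers and to at most 5.23 CPM in the muscles. They reached 4270 CPM in a cortex library, of which nearly all was Ttr, a gene that the choroid plexus next to the cortex also expresses. Skeletal muscle fibre markers, led by Acta1, summed to between 110345 and 149876 CPM in the muscles, to at most 9.42 CPM in the livers and to at most 30.2 CPM in the cortices. Neuron markers, led by Snap25, summed to between 4923 and 7058 CPM in the cortices, to at most 16.4 CPM in the livers and to at most 1.27 CPM in the muscles.

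The cortex library labelled AL male mouse 1 (CAL1) went against its label and was left out. It had 213 CPM of Xist, the RNA of the inactive X chromosome, and no count of the Y-linked gene Ddx3y. The 47 male libraries used had at most 0.612 CPM of Xist and between 25.1 and 70.8 CPM of Ddx3y, and the 48 female libraries had between 36.8 and 1627 CPM of Xist and at most 0.0497 CPM of Ddx3y. AL male cortex therefore has 7 libraries, and calls in cortex that change when CAL1 is put back are given with and without it.

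The diets were compared within each tissue and sex over all genes that passed the expression filter of edgeR, with its quasi-likelihood test. A gene was called where the Benjamini-Hochberg adjusted p was under 0.05, log2 fold changes are IF over AL, and the verbs rose and fell are kept for called genes. The p-values measure the spread between mice.

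Positions are those of the table on GRCm39. Among the transcription factors, Atf4 (ENSMUSG00000042406) lies on chromosome 15 from 80139385 to 80141742, Atf5 (ENSMUSG00000038539) on chromosome 7 from 44461680 to 44466082, and Ddit3 (ENSMUSG00000025408) on chromosome 10 from 127126643 to 127132157. Trib3 (ENSMUSG00000032715) lies on chromosome 2 from 152179342 to 152185952, Chac1 (ENSMUSG00000027313) on the same chromosome from 119181710 to 119184862, Sesn2 (ENSMUSG00000028893) on chromosome 4 from 132219343 to 132237812, and Ppp1r15a (ENSMUSG00000040435) on chromosome 7 from 45172340 to 45175692. Of the amino acid enzymes, Asns (ENSMUSG00000029752) lies on chromosome 6 from 7675169 to 7693254, Psat1 (ENSMUSG00000024640) on chromosome 19 from 15882042 to 15924701, and Phgdh (ENSMUSG00000053398) on chromosome 3 from 98220486 to 98247306. Atf4, Asns, Trib3, Chac1 and Phgdh overlap no other annotated gene. Atf5 overlaps Nup62 and Il4i1 on the other strand, Ddit3 overlaps Mars1 and Gm4189 on the other strand, Ppp1r15a overlaps Tulp2 and Psat1 overlaps Gm3329 on the other strand, and Sesn2 overlaps Gm12981 on its own strand. The libraries were directional, but the strand setting of the counting is not given in the sources used here, so the counts of these 5 genes are uncertain to the extent of their overlap.

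The 10 genes differed in where they were expressed. Atf4, which encodes the transcription factor ATF4, was at a similar level everywhere in AL males, with a mean of 204 ± 59.1 CPM (SD, n = 8) in liver, 223 ± 11.7 CPM (SD, n = 8) in muscle and 198 ± 15 CPM (SD, n = 7) in cortex. The libraries of the neighbouring tissues in this order overlapped, and they did so in AL females too. Atf5, a factor related to ATF4, was highest in liver, at 319.8 ± 65.7 CPM (SD, n = 8) in AL males, followed by muscle at 92.2 ± 16.1 CPM (SD, n = 8) and cortex at 40.6 ± 4.76 CPM (SD, n = 7), with no overlap between neighbours. In all groups of mice the order of means was liver, muscle, cortex.

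The enzymes of amino acid synthesis followed another order. Asns, which makes asparagine from aspartate, had 94.4 ± 8.88 CPM (SD, n = 7) in the cortex of AL males, 1.34 ± 0.564 CPM (SD, n = 8) in liver and 1.26 ± 0.614 CPM (SD, n = 8) in muscle. The cortex mean was 70.5-fold that of liver, while liver and muscle overlapped. Psat1, the aminotransferase of serine synthesis, had 111 ± 6.64 CPM (SD, n = 7) in cortex, 80.7-fold its mean in muscle and 281-fold its mean in liver. Phgdh, the dehydrogenase that starts serine synthesis, had 91.4 ± 8.43 CPM (SD, n = 7) in cortex, 25.4-fold its mean in muscle and 179-fold its mean in liver. In each of the 4 groups of mice every cortex library lay above every liver and muscle library for these 3 enzymes.

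In AL males the remaining members had smaller gaps between the tissues than these 3 enzymes. Trib3, a pseudokinase that binds AKT and ATF4, had 6.79 ± 2.06 CPM (SD, n = 8) in the liver of AL males, 4.57-fold its mean in muscle, and was highest in liver in all 4 groups without overlap. Chac1, an enzyme that degrades glutathione, was highest in muscle, at 55.8 ± 55.7 CPM (SD, n = 8) in AL males, with an overlap between muscle and cortex in that group and none in the other groups. Ddit3, which encodes the factor CHOP, had its highest mean in cortex in all 4 groups, at 43.7 ± 3.61 CPM (SD, n = 7) in AL males, where cortex and liver overlapped. Sesn2, a leucine sensor that restrains mTORC1, had 16.7 ± 2.15 CPM (SD, n = 7) in cortex, 9.4 ± 2.91 CPM (SD, n = 8) in liver and 3.56 ± 0.576 CPM (SD, n = 8) in muscle of AL males, and cortex and liver overlapped. Ppp1r15a, the stress-induced subunit of the eIF2 phosphatase (GADD34), had its highest mean in muscle in all 4 groups, with 33.5 ± 4.01 CPM (SD, n = 8) in muscle, 17.6 ± 2.34 CPM (SD, n = 8) in liver and 17.1 ± 1.05 CPM (SD, n = 7) in cortex of AL males, and liver and cortex overlapped.

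Levels of different genes were compared as RPKM, the CPM divided by the gene length of the table in kilobases. In the liver of AL males Atf5 came first with a mean of 160.5 RPKM and Atf4 followed with 86.6 RPKM, ahead of Ddit3 with 13.8 RPKM, while Asns, Phgdh and Psat1 were last at 0.49, 0.205 and 0.0926 RPKM. In muscle Atf4 led with 94.5 RPKM, before Atf5 with 46.2 RPKM and Chac1 with 34.1 RPKM. In cortex Atf4 led with 84 RPKM, and the enzymes Phgdh, Asns and Psat1 followed with 36.8, 34.5 and 26.1 RPKM.

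In the liver of males, mRNAs of several ATF4 targets were higher under IF while Atf4 and Atf5 themselves were lower. Of the 10 members, all tested, 6 were called, 4 higher and 2 lower, against 44.6% of all 16204 genes tested, so that a call on its own does not set the members apart in this tissue. Over all genes 3815 were higher and 3419 lower, with a median log2 fold change of 0.06. In 3 of the 10 members the AL and IF livers did not overlap, against 14.6% of the genes tested. Overlap, here and below, was read on CPM of total counts and was not checked with TMM.

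Atf4 ranged from 148 to 343 CPM (median 191) in the AL livers of males and from 124 to 149 CPM (median 139) in the IF livers. All 8 IF livers lay below the AL median and 7 of them below every AL liver, the highest IF liver alone reaching the lowest AL liver, and AL mouse 2 stood far above the others. Atf4 fell by 0.65 on the log2 scale (standard error 0.13, edgeR adjusted p = 0.000193). Atf5 ranged from 233 to 445 CPM (median 309) in AL and from 109 to 206 CPM (median 165) in IF livers. The diets did not overlap for Atf5, with every IF liver below every AL liver. Atf5 fell by 1.07 (standard error 0.15, adjusted p = 3.25e-06). The share of these changes that comes from fewer cells of a type or from less RNA per cell cannot be told apart in bulk tissue, here and in the results that follow.

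Ddit3, the third transcription factor of the group, ranged from 17.7 to 42.6 CPM (median 20.7) in AL and from 19 to 57.6 CPM (median 32.6) in IF livers. The groups overlapped widely, with 7 of 8 IF livers above the AL median but only 1 above AL mouse 2, the highest of its group. Its log2 fold change of 0.43 (standard error 0.19) did not pass the threshold (adjusted p = 0.0663). It passed without AL mouse 2 (0.57, adjusted p = 0.0103), without IF mouse 14 (adjusted p = 0.0326) and without IF mouse 16 (0.52, adjusted p = 0.0173), and without IF mouse 9 it was 0.28 (adjusted p = 0.217). It also passed with 7 mice per group, without AL mouse 2 and IF mouse 10 (adjusted p = 0.0224), and with total counts in place of TMM (adjusted p = 0.0446), and over all alternatives, those with 1 mouse left out included, the adjusted p ranged from 0.0103 to 0.356.

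Trib3 and Sesn2, whose products restrain AKT and mTORC1 signalling, separated the diets in every mouse. Trib3 ranged from 4.04 to 9.8 CPM (median 6.71) in AL and from 13.3 to 22.2 CPM (median 15.1) in IF livers of males. Every IF liver lay above every AL liver. Trib3 rose by 1.15 on the log2 scale (standard error 0.16, adjusted p = 2.57e-06). Sesn2 ranged from 6.29 to 15.4 CPM (median 9.23) in AL and from 15.5 to 31.1 CPM (median 20.2) in IF livers. The diets did not overlap on CPM of total counts, although AL mouse 2 came within a small step of the lowest IF liver. With total counts the median log2 fold change of all genes was 0.15, against 0.06 with TMM, so this small gap may depend on the scaling. Sesn2 rose by 1.07 (standard error 0.16, adjusted p = 7.25e-06).

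Chac1, whose product lowers glutathione, ranged from 0.614 to 4.05 CPM (median 1.93) in AL and from 1.13 to 12.8 CPM (median 6.12) in IF livers. Here 6 of 8 IF livers exceeded every AL liver, and IF mouse 10 lay among the lower AL mice. Chac1 rose by 1.5 (standard error 0.43, adjusted p = 0.00866). Ppp1r15a, which closes the feedback loop on eIF2, had medians of 18.1 CPM in AL and 20 CPM in IF livers. Its groups overlapped, and its log2 fold change was 0.07 (standard error 0.12, adjusted p = 0.633).

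Of the enzymes, Asns ranged from 0.632 to 2.35 CPM (median 1.21) in AL and from 2.17 to 6.21 CPM (median 4.08) in IF livers. All 8 IF livers were above the AL median and 6 were above every AL liver. Asns rose by 1.44 (standard error 0.30, adjusted p = 0.000346), from a level that is low in liver. Psat1 and Phgdh were nearly silent in liver, with medians of 0.313 and 0.419 CPM in AL and 0.976 and 0.721 CPM in IF livers. Their log2 fold changes of 1.15 (standard error 0.52, adjusted p = 0.0764) and 0.38 (standard error 0.66, adjusted p = 0.668) did not pass. The Psat1 value passed without AL mouse 5 (1.5, adjusted p = 0.0285) and without IF mouse 10 (1.30, adjusted p = 0.041), with a range of the adjusted p from 0.0218 to 0.168 over all alternatives, those with 1 mouse left out included.

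**Figure D1:**
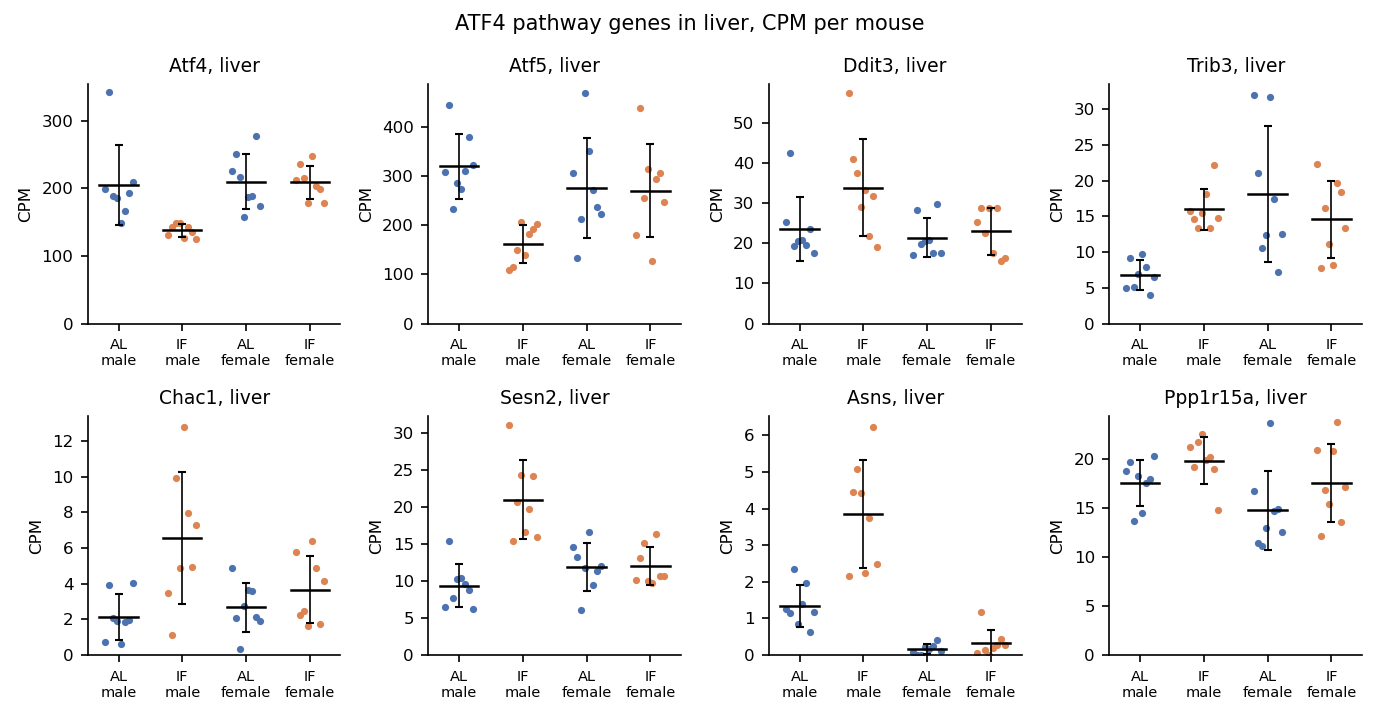
CPM of 8 of the 10 genes in each liver, by sex and diet; each point is a mouse, the horizontal line is the mean and the bar is the SD (n = 8). Among males, IF livers lie below AL livers for Atf5 and above them for Trib3 and Sesn2 without overlap, and among females the diets overlap in every panel.

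Markers of other cell types moved with the diet in the livers of males. Erythrocyte markers summed to between 362 and 956 CPM (median 569) in AL and between 667 and 6879 CPM (median 2070) in IF livers. The most abundant was Hba-a1, and 3 of 5 markers rose, Hba-a1, Hbb-bs and Hbb-bt, with Hbb-bs at a log2 fold change of 3.17. IF mouse 9 had the highest sum, and no marker of the list was at 0. Of the fibroblast markers 3 of 5 rose, with sums of 84.1 CPM at the AL and 122.9 CPM at the IF median and Dcn the most abundant, and of the bile duct markers, led by Spp1, 3 rose and 1 fell. Of the endothelial markers 2 of 5 rose, the macrophage marker Clec4f rose by 0.41, the hepatocyte marker Apoa1 fell by 0.48, and the adipocyte marker Cfd fell by 4.70. With IF mice 9 and 10, the livers with the highest erythrocyte sums, left out, an alternative chosen after seeing the data, the 6 calls remained and Psat1 passed as well, with Atf4 at -0.65, Atf5 at -0.93, Trib3 at 1.17, Sesn2 at 1.03, Asns at 1.5, Chac1 at 1.79 and Psat1 at 1.45. Ddit3 did not pass (0.20, adjusted p = 0.356, the highest over its alternatives, which start at 0.0103). The IF livers kept in that fit still had erythrocyte sums of up to 3033 CPM (IF mouse 16), so the difference in these sums was not removed. The part of these cell types in the values of the members was not tested.

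Other genes of the pathway were read from lists of 100 genes in 9 groups, drawn up by function, and over all genes of the liver of males 23.5% were called higher and 21.1% lower. Of 11 factors that partner ATF4 or respond to stress, all tested, 8 rose and none fell in the liver of males, with a median log2 fold change of 0.76 against 0.06 over all genes. They include Cebpb (1.56, adjusted p = 2.78e-07), a dimer partner of ATF4, Foxo1 (1.57, adjusted p = 2.17e-10) and Atf3 (1.03, adjusted p = 0.00535). Among 12 genes of the eIF2 kinases, eIF2 subunits and phosphatase, 1 rose (Eif2b5, 0.68, adjusted p = 5.92e-06) and none fell, with a median of -0.01. Of 12 other amino acid enzymes tested, 3 rose and 4 fell (median -0.06), with Mthfd1l at 2.07, Got1 at 1.16 and Pck2 at 0.75 on the higher side and Cbs at -1.04 and Cth at -0.95 on the lower. Of 9 amino acid transporters 3 rose and 1 fell (median 0.50), among them Slc1a5 at 1.22 and Slc1a4 at -1.57. These and the other named genes of the lists were chosen after their values were seen, since no gene of the lists was called in both sexes.

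Other lists hold targets shared with further branches of the stress response. Of 14 cytosolic tRNA synthetase genes, 2 rose and 4 fell in the liver of males, with a median of -0.16, a share of calls close to that of all genes. Of 16 chaperones and other targets of XBP1 or ATF6 in the endoplasmic reticulum, 13 fell and 1 rose, with a median of -0.77, from Sdf2l1 at -3.17 (adjusted p = 2.47e-07) to Herpud1 at 1.61 (adjusted p = 6.21e-08). Of the 3 secreted targets Fgf21 rose (0.99, adjusted p = 0.0383) and Vegfa fell (-0.62, adjusted p = 0.00246). Of 9 p53 targets, a group that shares Sesn2 as a target, 2 rose and 3 fell, and of 9 immediate early genes 3 rose and none fell. With total counts in place of TMM the median of all genes was 0.15, and the medians of the eIF2 genes (0.08), the amino acid enzymes (0.04, with 4 higher and 3 lower) and the p53 targets (0.07, with 2 higher and 1 lower) turned positive, whereas those of the tRNA synthetases (-0.07, with 2 higher and 2 lower) and of the chaperones (-0.70, with 1 higher and 12 lower) stayed negative. Of the secreted targets 2 rose and 1 fell with total counts, and 4 immediate early genes rose. Over all genes that scaling also gave more higher and fewer lower calls than TMM, with the counts in the last section.

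In the skeletal muscle of males Asns, Phgdh, Psat1 and Chac1 were higher under IF and Atf5 was lower. Of the 10 members, all tested, 5 were called, 4 higher and 1 lower, against 23.0% of 15025 genes tested, of which 1726 were higher and 1737 lower, with a median log2 fold change of 0.01. This even split depends on the scaling, since total counts in place of TMM gave far more higher than lower calls (counts in the last section). In none of the members were the diets free of overlap (0 of 10, against 4.17% of the genes tested).

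Atf4 ranged from 205 to 239 CPM (median 223) in AL and from 229 to 280.0 CPM (median 261) in IF muscles of males. All 8 IF muscles lay above the AL median and 7 above every AL muscle. The log2 fold change of 0.15 (standard error 0.05) just missed the threshold (edgeR adjusted p = 0.0531), and it passed with DESeq2 (adjusted p = 0.0267), and with total counts in place of TMM (0.22, adjusted p = 0.00478), with a range from 0.00478 to 0.114 over the alternatives. Leaving out 1 mouse also brought it past the threshold for AL mouse 6 (adjusted p = 0.0484), AL mouse 8 (adjusted p = 0.0396), IF mouse 10 (adjusted p = 0.0173) and IF mouse 14 (adjusted p = 0.0414). Atf5 ranged from 70.1 to 116 CPM (median 93.5) in AL and from 51.8 to 87.6 CPM (median 62.1) in IF muscles. All 8 IF muscles lay below the AL median and 6 below every AL muscle, with IF mouse 12 the highest of its group. Atf5 fell by 0.58 (standard error 0.11, adjusted p = 0.00129). Ddit3 had medians of 16.7 CPM in AL and 12 CPM in IF muscles, and its value of -0.37 (standard error 0.15), which missed the threshold (edgeR adjusted p = 0.0791), passed with DESeq2 (adjusted p = 0.0428), without AL mouse 6 (adjusted p = 0.0372) and without IF mouse 12 (-0.48, adjusted p = 0.00921), the adjusted p ranging from 0.00338 to 0.183 over the alternatives.

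In muscle Chac1 varied widely among the AL mice. It ranged from 9.16 to 184 CPM (median 39) in AL and from 133 to 335 CPM (median 199.6) in IF muscles of males. Except for AL mouse 8, at 184 CPM, every AL muscle lay below every IF muscle. Chac1 rose by 1.87 (standard error 0.49, adjusted p = 0.0136).

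Asns ranged from 0.685 to 2.29 CPM (median 1.11) in AL and from 1.98 to 11.2 CPM (median 3.63) in IF muscles. All 8 IF muscles were above the AL median and 6 were above every AL muscle, with IF mouse 12 far above the rest. Asns rose by 1.80 (standard error 0.36, adjusted p = 0.00181). Phgdh ranged from 1.35 to 6.59 CPM (median 3.62) in AL and from 2.26 to 17.8 CPM (median 10.2) in IF muscles. Here 6 of 8 IF muscles were above every AL muscle, and IF mouse 11 lay among the lower AL mice. Phgdh rose by 1.44 (standard error 0.41, adjusted p = 0.0211). Psat1 ranged from 0.725 to 2.08 CPM (median 1.36) in AL and from 0.847 to 5.31 CPM (median 2.88) in IF muscles. All IF muscles except that of mouse 11 were above every AL muscle. Psat1 rose by 1.08 (standard error 0.28, adjusted p = 0.0093).

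Adipocyte markers moved with the diet in the same muscles. Their sum ranged from 30.3 to 319 CPM (median 86.7) in AL and from 107 to 1701 CPM (median 674) in IF muscles of males. The most abundant was Cfd, and 4 of the 5 markers rose, Cfd, Adipoq, Plin1 and Retn, while Lep was not called; none of the list was at 0. Of the 5 muscle fibre markers Ckm (-0.19) and Mylpf (-0.29) fell, with sums of 133209 CPM at the AL and 129332 CPM at the IF median and IF mouse 12 the lowest at 113459 CPM. Of the 5 fibroblast markers Col1a1 (-0.58) and Col3a1 (-0.44) fell, with sums of 381 and 330 CPM at the medians, and so did the endothelial marker Kdr (-0.54), the macrophage marker Csf1r (-0.44) and the leukocyte marker Cd3e (-1.08). IF mouse 12, with 1701 CPM of adipocyte markers, had the most Asns and Psat1 and 16.4 CPM of Phgdh. IF mouse 10, with 1286 CPM, had the most Phgdh. IF mouse 11, with 107 CPM, had the least Asns, Phgdh and Psat1 of the IF muscles, but 211 CPM of Chac1. With IF mice 10 and 12 left out, an alternative chosen after seeing the data, Phgdh no longer passed (1.11, adjusted p = 0.0774, the highest over its alternatives, which start at 0.00347). Asns (1.40), Psat1 (0.75), Chac1 (1.88) and Atf5 (-0.71) still passed, and Atf4 (0.17) and Ddit3 (-0.55) passed as well. The IF muscles kept in that fit still had adipocyte sums of up to 883 CPM (IF mouse 9), so the difference in these sums was not removed. IF mice 10 and 12 were also the highest muscles for Phgdh (17.8 and 16.4 CPM) and Psat1 (4.69 and 5.31 CPM). Leaving them out lowers the IF values of both genes whatever the adipocyte sums, so the lost Phgdh call says nothing about adipocyte RNA. The part of adipocyte RNA in the values of the 3 enzymes was not tested.

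**Figure D2:**
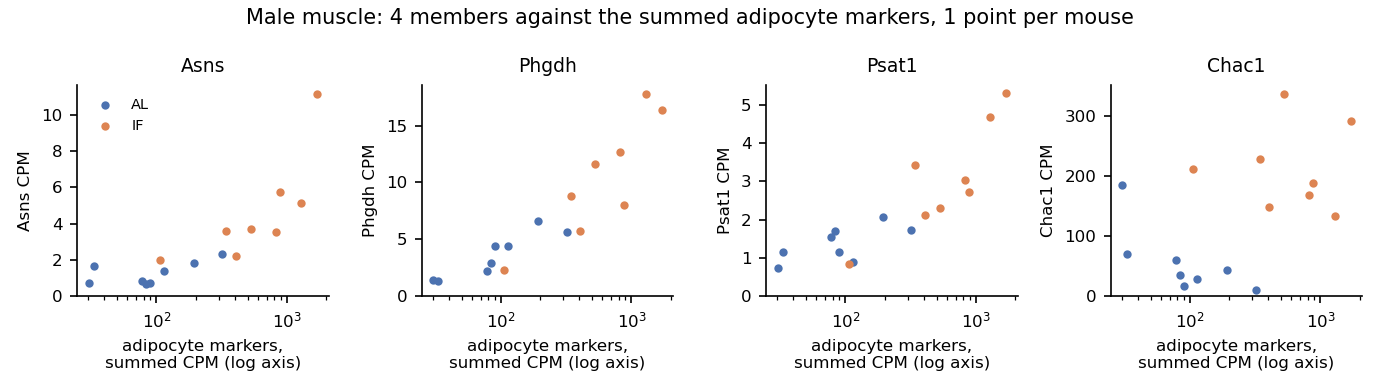
CPM of Asns, Phgdh, Psat1 and Chac1 in each muscle of males against the summed CPM of 5 adipocyte markers on a log axis, 8 AL and 8 IF mice, each point a mouse. The IF muscles with the highest sums, 1286 and 1701 CPM, have the highest Phgdh and Psat1, whereas Chac1 is at 133 CPM or more in every IF muscle, with 211 CPM at a sum of 107 CPM.

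The remaining members in the muscle of males were Trib3, Sesn2 and Ppp1r15a. Their log2 fold changes were 0.35, 0.25 and -0.05, with adjusted p-values of 0.352, 0.262 and 0.704. IF mouse 12 was the highest muscle for Trib3, at 4.66 CPM, and without IF mice 10 and 12 the Trib3 value was -0.07.

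Of the 11 partner and stress factors, 6 rose and none fell in the muscle of males (median 0.48 against 0.01 over all genes, of which 11.5% were called higher and 11.6% lower), with Ddit4, an inhibitor of mTORC1, at 2.88 (adjusted p = 1.41e-05) and Nfe2l2, the antioxidant factor NRF2, at 0.74 (adjusted p = 2.61e-07). Of the 12 eIF2 genes 2 rose, the kinase Eif2ak4, known as GCN2, at 0.49 (adjusted p = 0.0129) and the phosphatase subunit Ppp1r15b at 0.52 (adjusted p = 9.39e-05). The 14 tRNA synthetase genes had a median of 0.07 and were not called. With total counts in place of TMM the median of all genes moved up to 0.08. Over all genes more were then called higher and fewer lower than with TMM, with the counts in the last section. Under that scaling 5 of the eIF2 genes and 5 of the tRNA synthetase genes rose. Of 13 other amino acid enzymes 2 rose and 1 fell, of 8 transporters 2 rose and 3 fell, with Slc1a5 at 1.59, and of 16 chaperones and XBP1 or ATF6 targets 3 rose and 4 fell (median -0.10). With total counts, which moved the median of all genes up, the transporters had 3 higher and 2 lower and the chaperone list 4 higher and 3 lower. Of 10 p53 targets 4 rose and 2 fell with either scaling, among them Trp53inp1 at 1.04 and Zmat3 at -0.39, and of 10 immediate early genes 2 rose and 1 fell, or none fell with total counts.

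In the cortex of males Psat1 alone among the 10 members was called, against 7.21% of 18462 genes tested. Psat1 ranged from 97.3 to 117 CPM (median 111) in AL and from 118 to 164 CPM (median 139) in IF cortices. Every IF cortex lay above every AL cortex, AL mouse 2 being the lowest. It was also the only member whose diets did not overlap (1 of 10, against 1.01% of the genes tested), but CAL1, at 126 CPM of Psat1, lay above 2 IF cortices, so that the diets overlap with CAL1 put back. Psat1 rose by 0.33 (standard error 0.06, edgeR adjusted p = 0.00508), and with CAL1 put back it rose by 0.30 (adjusted p = 0.021, the highest over its alternatives, which start at 2.68e-05).

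The other enzymes of the group were as abundant in cortex but differed little between the diets. Asns had medians of 91.1 CPM in AL and 89.2 CPM in IF cortices, and Phgdh 89.4 and 92.6 CPM. Their log2 fold changes were -0.06 and 0.07, each with a standard error of 0.07. The other 7 members had log2 fold changes between -0.19 (Chac1) and 0.40 (Trib3) and adjusted p-values of 0.124 or more. At an unadjusted p under 0.05, 3 of 10 members passed, Psat1, Trib3 and Ppp1r15a, against 23.8% of genes (4400). Ppp1r15a, at 0.18, passed the adjusted test without IF mouse 12 (0.22, adjusted p = 0.0315), while its adjusted p ranged from 0.0879 to 0.341 over the alternatives other than leaving out 1 mouse. The count of genes called in this tissue, 1332, depended on single mice. It was 638 without AL mouse 2, 766 without AL mouse 3, 771 without AL mouse 5, 877 without IF mouse 11, 866 without IF mouse 13, 823 without IF mouse 14 and 2060 without IF mouse 12, and with CAL1 put back it was 294.

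Markers of oligodendrocytes moved with the diet in these cortices. In males Mbp rose by 0.59 on the log2 scale (standard error 0.12, edgeR adjusted p = 0.0091), from a mean of 3275 CPM in AL to 4892 CPM in IF cortices. Mobp rose by 0.66 (adjusted p = 0.00953), Mog by 0.53 (adjusted p = 0.00194) and Mag by 0.37 (adjusted p = 0.0269). With CAL1 put back Mog still rose (0.46, adjusted p = 0.0205), whereas Mbp (0.49, adjusted p = 0.0669), Mobp (0.57, adjusted p = 0.0553) and Mag (0.28, adjusted p = 0.174) were not called. Among the astrocyte markers Aqp4 fell by 0.51 and the other 4 were not called, with summed medians of 2040 CPM in AL and 1968 CPM in IF cortices. Of the endothelial markers Cldn5 fell by 0.43, with sums of 157 CPM at the AL and 117 CPM at the IF median. Sox9 and Spp1 of the bile duct list fell by 0.54 and 0.62, the leukocyte marker Ptprc fell by 0.74 and the adipocyte marker Retn by 0.83. With CAL1 put back Aqp4 (-0.46) and Sox9 (-0.49) still fell, and Cldn5 (-0.35), Spp1 (-0.55), Ptprc (-0.74) and Retn (-0.73) were not called. The part of these cell types in the Psat1 value was not tested. Of the lists, against 3.79% of all genes called higher and 3.43% lower, 1 of 11 partner and stress factors rose (Ddit4, 0.68, adjusted p = 0.00559), 1 of 14 amino acid enzymes rose (Mthfd1l, 0.89, adjusted p = 0.00508), 2 of 10 transporters rose and 1 fell, 1 of 9 p53 targets fell, and 3 of 16 chaperones and XBP1 or ATF6 targets fell. With CAL1 put back Ddit4 (0.64) and Mthfd1l (0.80) still rose, 1 transporter rose, and the other list genes were not called.

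**Figure D3:**
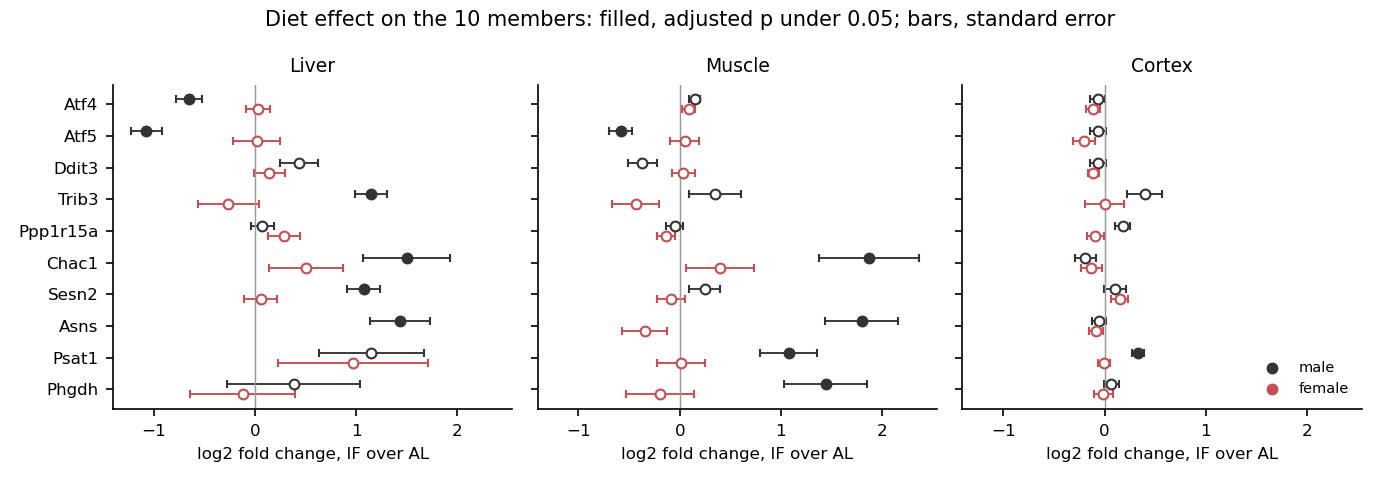
Log2 fold change of IF over AL for the 10 genes in liver, muscle and cortex, males in black and females in red; filled points have an adjusted p under 0.05 and bars are standard errors. Filled points occur in males, 6 in liver, 5 in muscle and 1 in cortex, and the female points are all open.

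In the females edgeR called none of the members in any tissue. In liver 0 of 9 members tested were called, against 0% of 15938 genes, and at an unadjusted p under 0.05, 0 members passed, against 5.77% of genes (919). DESeq2 called 6 genes in that tissue and none of the members. In muscle 0 of 10 members were called, against 0.00653% of 15308 genes (1 gene), and 0 passed unadjusted, against 10.7% (1644 genes). DESeq2 called 91 genes there, without a member, and edgeR called 3 without AL mouse 27 and 2 without IF mouse 33. In cortex 0 of 10 members were called, against 0.0109% of 18403 genes (2 genes), and 1 passed unadjusted, Ddit3, against 11.2% (2069 genes). Its log2 fold change was -0.11 (edgeR adjusted p = 0.444). DESeq2 called 73 genes in cortex, again without a member, and edgeR called between 0 and 254 genes and no member when each mouse was left out in turn, with the 254 coming without AL mouse 26. A missed threshold does not show that the diets were alike.

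In the livers of females Atf4 ranged from 158 to 278 CPM (median 202) in AL and from 178 to 247 CPM (median 208) in IF mice, and Atf5 from 134 to 469 CPM (median 255) and from 127 to 439 CPM (median 275). The diets overlapped throughout for both, with log2 fold changes of 0.03 (standard error 0.11) and 0.02 (standard error 0.23). Trib3 ranged from 7.28 to 32.1 CPM (median 15) in AL and from 7.81 to 22.3 CPM (median 14.7) in IF livers. These medians lie near that of the IF males, 15.1 CPM, and above that of the AL males, 6.71 CPM, a difference in level that was not tested. Sesn2 had medians of 11.9 and 10.7 CPM and a log2 fold change of 0.06 (standard error 0.17). Asns was barely counted in the female livers, with medians of 0.14 CPM in AL and 0.227 CPM in IF and no count in 2 AL livers and 1 IF liver, and it did not pass the filter there.

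In female muscle Asns had medians of 1.89 CPM in AL and 1.31 CPM in IF mice (log2 fold change -0.35, standard error 0.23), Phgdh 3.89 and 3.67 CPM (-0.19, standard error 0.34) and Chac1 64.6 and 90.3 CPM (0.40, standard error 0.34). The diets overlapped for all 3. Their adipocyte markers summed to medians of 189 CPM in AL and 171 CPM in IF muscles, and none was called. In female cortex Psat1 ranged from 105 to 134 CPM in AL and from 104 to 133 CPM in IF mice, with the same mean of 119.8 CPM in both. No gene of the 9 lists was called in a tissue of the females.

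The difference between the sexes in the response to the diet was tested as an interaction over the 4 groups of a tissue, given as the log2 response of females minus that of males. In liver 4 of 10 members were called, against 23.7% of 17658 genes. They were Trib3 (-1.38, standard error 0.36, edgeR adjusted p = 0.00449), Sesn2 (-0.99, standard error 0.24, adjusted p = 0.00208), Atf5 (1.13, standard error 0.29, adjusted p = 0.00374) and Atf4 (0.71, standard error 0.17, adjusted p = 0.00169). Asns (-0.33, standard error 0.77, adjusted p = 0.801) and Chac1 (-0.97, standard error 0.59, adjusted p = 0.251), called in males, did not pass, and their standard errors leave room for a difference.

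In muscle 3 of 10 members were called, against 14.2% of 16346 genes. Asns had the widest gap of the members (-2.12, standard error 0.42, adjusted p = 0.000724), followed by Phgdh (-1.62, standard error 0.54, adjusted p = 0.0442) and Atf5 (0.65, standard error 0.19, adjusted p = 0.0199). Chac1 (-1.45, adjusted p = 0.104) and Psat1 (-1.04, adjusted p = 0.0605) were not called. In cortex 1 of 10 members was called, Psat1, against 2.03% of 19547 genes. Its difference of -0.33 (standard error 0.08, adjusted p = 0.0319) no longer passed with CAL1 put back (-0.30, adjusted p = 0.0886, the highest over its alternatives, which start at 0.0202).

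Whether the response to the diet differed between the tissues of males was tested in a fit over 3 tissues with the mouse as a block. For 8 of 10 members it did, against 34% of 21608 genes. Liver and muscle had opposite signs for Atf4, at -0.65 in liver, 0.15 in muscle and -0.07 in cortex (adjusted p = 2.28e-05 for the difference between tissues). So they had for Ddit3, at 0.43 in liver, -0.37 in muscle and -0.06 in cortex (adjusted p = 0.00976). Atf5 was negative throughout, at -1.07, -0.58 and -0.06 (adjusted p = 0.000182). The log2 values are from the fits within a tissue, and the test between tissues does not ask whether signs are opposite. Within tissues edgeR did not call Atf4 in muscle (adjusted p = 0.0531), nor Ddit3 in liver (adjusted p = 0.0663) or muscle (adjusted p = 0.0791), nor these genes in cortex. Sesn2 (adjusted p = 0.00152) and Trib3 (adjusted p = 0.0345) had their largest values in liver, Chac1 (adjusted p = 0.00209) and Asns (adjusted p = 0.000551) in liver and muscle with negative values in cortex (-0.19 and -0.06), and Phgdh (adjusted p = 0.0459) in muscle. Psat1 (adjusted p = 0.228) and Ppp1r15a (adjusted p = 0.532) were not called. In females the same test called 0 of 10 members with edgeR, against 0% of 21292 genes; at an unadjusted p under 0.05 it took 0 members and 1732 genes, and DESeq2 was not run on this fit.

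Genes whose pattern was most like that of a member were looked for over 32 livers and 17658 genes, as Pearson's r of log2 CPM after the means of the 4 groups of sex and diet had been subtracted, so that these values describe the mouse to mouse variation that diet and sex leave. Closest to Atf4 were Cflar (r = 0.74), Uap1 (r = 0.72) and Cdkn1b (r = 0.70), and closest to Ddit3 were Gpr137b-ps (r = 0.82), Pygo2 (r = 0.81) and Vasn (r = 0.79). Closest to Trib3 were Gm34667 (r = 0.76), Tcp11l2 (r = 0.74) and Rcl1 (r = 0.71), and closest to Asns were Mfhas1 (r = 0.71), Lama2 (r = 0.68) and Dip2b (r = 0.67). Genes picked as closest exceed the members by construction, so member values are given with their ranks. For Atf4, Ddit3 had r = 0.47 (rank 355) and Asns r = 0.03 (rank 10249). For Trib3, Sesn2 had r = 0.47 (rank 223), and for Ddit3, Sesn2 had r = 0.42 (rank 985). AL male mouse 2 stood far above its group for Atf4, Ddit3 and Sesn2, and r without it was not computed. Muscle is given for Asns only, a choice made after seeing the data. Over 32 muscle libraries the genes closest to Asns were Pde3b (r = 0.84), Hebp1 (r = 0.83) and Aoc3 (r = 0.83). Pde3b and Aoc3 are known from fat cells, and the part of fat cell RNA in these values was not tested. With the members Asns had r = 0.65 (Phgdh), r = 0.64 (Trib3) and r = 0.57 (Psat1), at ranks 216, 271 and 519 of all genes. With Chac1 it had r = -0.32. Differences in cell content between the libraries were not removed, and no p-value is attached to r.

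ATF4 binds with C/EBP partners at elements whose core was searched here as TGATGNAA, and the cAMP response element was searched as TGACGTCA, each on both strands. The windows are RefSeq promoters on GRCm38.p6, from 250 bases before to 50 bases after the start of a gene, and all 10 members had an entry, 12 windows in all. TGATGNAA was found in 3 members, Asns, Chac1 and Trib3, and in 1304 of 32851 promoters (3.97%). TGACGTCA was found in Ppp1r15a alone, at position -12 from the start, and in 588 promoters (1.79%). The match of Asns, TGATGAAA, starts at position -23, that of Chac1, TTGCATCA on the other strand, at -193, and that of Trib3, TTACATCA on the other strand, at 15. A match is a description of the sequence, and no match says only that these letters are not in the window. The sequences of the 3 members with the ATF4 core are shown because these genes were called in the liver of males, each 5′ to 3′ on the strand of the gene with the match in capitals. They are Asns on the minus strand at chr6:7693210-7693459, Chac1 on the plus strand at chr2:119350992-119351241, and 30 bases around the match of Trib3 on the minus strand at chr2:152344028-152344057.
Asns: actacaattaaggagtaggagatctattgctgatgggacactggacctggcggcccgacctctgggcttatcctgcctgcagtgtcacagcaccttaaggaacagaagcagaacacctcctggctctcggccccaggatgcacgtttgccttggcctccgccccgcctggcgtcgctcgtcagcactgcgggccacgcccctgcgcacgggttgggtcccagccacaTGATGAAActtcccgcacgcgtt
Chac1: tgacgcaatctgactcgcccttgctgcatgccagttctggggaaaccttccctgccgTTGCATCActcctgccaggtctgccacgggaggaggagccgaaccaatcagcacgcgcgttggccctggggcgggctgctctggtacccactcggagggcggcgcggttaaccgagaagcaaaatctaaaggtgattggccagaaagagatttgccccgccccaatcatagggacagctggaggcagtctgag
Trib3: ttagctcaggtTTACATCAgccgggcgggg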

How the data were processed

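Poly-A RNA of liver, muscle and cortex had been sequenced as directional libraries. Per the submitters' processing notes the authors used CASAVA and HISAT2 with the mm39 genome, and per the paper's methods featureCounts. They deposited raw read counts per gene, with the gene length, another deposited value, in the same table. The treatment of reads with several matches is not given in the sources used here. All 96 count columns were matched to samples by name, and CAL1 was left out of the comparisons. CPM was computed on total counts and RPKM from the deposited gene length.

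Each diet effect was fitted on the whole table with edgeR 4.0.16 in R 4.3.3, with filterByExpr (minimum count 10, minimum total 15), TMM, a robust quasi-likelihood fit and Benjamini-Hochberg adjustment over all genes tested. The standard error is the size of the log2 fold change divided by the square root of F. The scripts were tested on simulated data. Python 3.11.15 and matplotlib 3.10.9 drew the plots. Likeness used log2 CPM with a prior count of 2. Alternatives were other scalings, filters, DESeq2 1.42.0, the replicate number as a block, 7 mice per group and each library left out, and, chosen after seeing the data, CAL1 included and the mice with the highest erythrocyte or adipocyte sums left out.

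The members and lists were chosen with earlier results of these data known. Named genes were the 10 members, the 3 genes most like Atf4, Asns, Trib3 and Ddit3 in liver (those most like Asns in muscle were added after seeing the data), the markers, and from each list the largest rise and fall called in the same direction in both sexes with a mean of at least 1 CPM, which took 0 genes, so list genes named in the text were chosen after their values were seen. The replicate numbers name different mice in AL and IF. Some marker results are not reported here.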

Additional observations from a re-analysis of the deposited data

Results flagged for a closer look

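In 16 of 120 groups of libraries the highest or lowest mouse lay far from the others of its group, by the gap to its neighbour as a share of the range. The rule takes about 1 in 20 groups by chance, a rate that was not tested for CPM values. The highest mouse stood apart in 14 of the 16 groups and the lowest in 2. In the livers of AL males mouse 2 had 343 CPM of Atf4, 42.6 CPM of Ddit3 and 15.4 CPM of Sesn2, and mouse 5 had 1.06 CPM of Psat1, while IF male mouse 16 had the lowest Ppp1r15a, 14.7 CPM. In female livers IF mouse 34 had 1.18 CPM of Asns, AL mouse 28 had 0.967 CPM of Psat1 and AL mouse 29 had 23.6 CPM of Ppp1r15a. In muscle IF male mouse 12 had 11.2 CPM of Asns and 4.66 CPM of Trib3, AL male mouse 8 had 184 CPM of Chac1, IF female mouse 34 had 2.54 CPM of Asns and IF female mouse 36 had 27.2 CPM of Ppp1r15a. In cortex AL male mouse 2 had the lowest Psat1, 97.3 CPM, IF male mouse 15 had 114 CPM of Phgdh and AL female mouse 31 had 117 CPM of Asns.

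The response to the diet differed between the sexes by the interaction test of edgeR for 8 values, given as log2 female minus male. They were 0.71 for Atf4, 1.13 for Atf5, -1.38 for Trib3 and -0.99 for Sesn2 in liver, 0.65 for Atf5, -2.12 for Asns and -1.62 for Phgdh in muscle, and -0.33 for Psat1 in cortex. With CAL1 put back the Psat1 value was -0.30 and was not called (edgeR adjusted p = 0.0886). Between the tissues of males the response differed for 8 members, with adjusted p-values of 2.28e-05 (Atf4), 0.000182 (Atf5), 0.000551 (Asns), 0.0345 (Trib3), 0.00209 (Chac1), 0.00976 (Ddit3), 0.00152 (Sesn2) and 0.0459 (Phgdh). Outside the comparisons, the cortex library CAL1, labelled male, had 213 CPM of Xist.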

How the results depend on the processing

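Of 589 values of the members under alternatives 554 kept their direction and their side of the threshold, 20 came past it, 2 fell short of it and 13 changed sign; of 934 values with a library left out, over 95 fits, 874 kept theirs, 12 came past it and 48 changed sign. No value that changed sign was past the threshold before or after. With total counts these were Ppp1r15a in muscle of males (0.0245), Atf4 (-0.0068) and Atf5 (-0.0266) in liver of females, and Atf5 (-0.0219), Ddit3 (-0.0305) and Psat1 (-0.0636) in muscle of females. Trib3 changed sign in muscle of males without IF mice 10 and 12 (-0.072) and in cortex of females with RLE (-0.0034), DESeq2 (-0.00336), no filter (-0.0073) and the replicate block (-0.0386), and the sex by diet value of Psat1 in liver did with the replicate block (0.0936). The 2 that fell short were Phgdh in the muscle of males without IF mice 10 and 12 and the sex by diet value of Psat1 in cortex with CAL1 included. All 120 levels moved by less than 1 SD under TMM. The counts of genes called moved further, for causes not tested. In males an unadjusted p with DESeq2 took 5407 genes in muscle and 4663 in cortex, with 3 members. In cortex DESeq2 called 2259, 7 mice per group gave 498, CAL1 included gave 294, and leaving out each library gave 638 to 2060, with 1 to 2 members. In females DESeq2 called 6 genes in liver, 91 in muscle and 73 in cortex, and with an unadjusted p 1059, 1742 and 2235, the last with 1 member. Muscle of females had 5 genes with no filter and 1 to 3 with a library left out, cortex of females 0 with total counts and 0 to 254 with a library left out. With CAL1 included, sex by diet in cortex gave 81 genes and 0 members by edgeR, 2 members with an unadjusted p, and DESeq2 was not run on this fit. The replicate block brought Chac1 in muscle for sex by diet (-1.78) and Ddit3 in liver (0.40) and muscle (-0.38) of males past the threshold and changed no other call of a member. It gave 382 genes in cortex of males and 0 in cortex of females. The tissue by diet fit in females, which has the mouse as its block, gave 14 with no block. The replicate numbers name different mice in AL and IF. In liver, muscle and cortex, 1 of 8, 1 of 8 and 1 of 7 pairs of the same number in males correlated above 0.1. In females 1, 4 and 2 of 8 did, with the highest r, 0.46, in muscle. No rate by chance was worked out for these counts, so a shared order or batch behind the numbers was not tested. Calls split as 3815 higher and 3419 lower in liver of males with TMM, 3593 and 3624 with RLE and 4402 and 2694 with total counts, and as 1726 and 1737 in muscle with TMM and 2553 and 1073 with total counts. At the depths here, Asns in female liver and Psat1 and Phgdh in liver rest on few counts.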
